A study of Oncorhynchus mykiss with 8 samples.

Results

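Of 43603 probes of the salmonid array, 3 carried the name myelin basic protein. The third, A_05_P472647, is described further on. The other 2, A_05_P368497 and A_05_P375352, are the members this report is about. Both were picked because the study had listed them for small fish in both spawning lots, so their size effects are given here as a description with no test. With the ratios read as the study read them, both probes lay lower in large than in small fish in rainbow trout white muscle. A_05_P368497 averaged -0.55 ± 0.17 in the Dec. lot and -0.90 ± 0.17 in the Sept. lot as log2(large/small), which is 1.46-fold and 1.87-fold lower in large fish (SE of the limma fit, n = 2 pool pairs per lot). A_05_P375352 averaged -0.47 ± 0.087 in the Dec. lot and -0.54 ± 0.085 in the Sept. lot, which is 1.38-fold and 1.46-fold lower. No difference between the lots was called for either probe. Listing in both lots favours probes with like effects, so nothing is read from this. The 2 probes tracked each other poorly from array to array.

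Myelin is the stack of membrane that glial cells wrap around axons, laid down by Schwann cells along peripheral nerves and by oligodendrocytes in the brain and spinal cord. Myelin basic protein sits on the cytoplasmic face of that membrane and holds its inner leaflets together, so that the sheath becomes compact. A muscle fibre makes no myelin, and in a piece of skeletal muscle myelin transcripts usually come from the Schwann cells that wrap the motor and sensory axons running through it.

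The comparison asked which transcripts differ with body size within a family background, and whether they do so in fish spawned in different seasons. All fish were of the Lyndon strain and genetically unmanipulated and immature and, per the study's methods, were sampled at the same age in both lots. The labels give the feeding as ad libitum, whereas the methods describe rations set by body weight and water temperature. Large fish were the heaviest and small fish the lightest of each of 5 half-sib families per lot, 1 sire having been crossed to 5 dams in each season. Each lot thus stands for the offspring of 1 sire, and season cannot be told apart from sire. A large pool and a small pool each held mRNA of 5 fish, 1 per family. One pair of pools set the largest fish of the families against the second smallest, and the other set the second largest against the smallest. Each pool pair was hybridised on 2 arrays with Alexa Fluor 647 and Alexa Fluor 555 exchanged, which gave 4 arrays for the Dec. lot and 4 for the Sept. lot. The tissue came from a plug of white muscle below the dorsal fin. The skin was taken off, and only small fragments from beneath the connective tissue under it, described in the methods as myofibrils alone, were kept. In such bulk samples fewer cells of a type and less RNA per cell cannot be told apart.

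Values are log2(large/small), and a negative value is lower in large fish. That direction is a likely one, since the labels name each pool's dye and do not say whether large or small fish are on top of the deposited ratio. It rests on the study's lists of named probes outside the myelin list, which hold 955 listings as higher in large or in small fish. All 955 took the listed sign with small over large as the reading of each column, and 646 did so with the columns of one dye orientation turned. The lists were made from these same arrays, so the match shows how the study read the columns. It cannot show that the swapped columns truly share this orientation, and the values with turned columns are given at the end. Between 41909 and 43249 probes had a value on an array, with array medians between -0.03 and 0.02 and standard deviations between 0.29 and 0.60. Across all probes the arrays of a pool pair correlated at r = -0.26 and 0.47 in the Dec. lot. In the Sept. lot r was -0.17 and -0.11. A single array is thus a weak guide to the value of a probe. Turning 1 column of a pair would reverse the sign of its r, so the negative values leave the orientation of the swapped columns unshown. What made them negative was not tested. The array of Dec. pool pair 1 with large fish in Alexa Fluor 647 stood apart from the other Dec. arrays. Of 3849 probes that had 1 sign and at least a 1.2-fold difference on the other 3 Dec. arrays, 70.1% had the opposite sign on it, against 50.5%, 19.3% and 13.1% for the other Dec. arrays judged in the same way. The Sept. arrays, judged on 251 to 444 probes each, gave 47.5% and 49.0% in pool pair 1 and 29.9% and 40.7% in pool pair 2. The Sept. arrays thus agreed weakly in sign as well. Ratios hold no level, so the labelled tissue could not be checked against its defining markers, and the number of arrays is the only guide to precision.

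A_05_P368497 showed the wider spread of the 2 probes. In the Dec. lot it read -1.24 with large fish in Alexa Fluor 647 and -0.45 with large fish in Alexa Fluor 555 on the arrays of pool pair 1, and 0.0043 and -0.52 on those of pool pair 2. In the Sept. lot the values were -0.48 and -1.03 for pool pair 1 and -1.25 and -0.85 for pool pair 2, in the same order of dyes. The probe was thus below 0 on 3 of 4 Dec. arrays and 4 of 4 Sept. arrays, and the 4 values of the Dec. lot overlapped those of the Sept. lot. Averaged over the swaps, the Dec. pool pairs gave -0.84 and -0.26 and the Sept. pool pairs -0.75 and -1.05. The lowest Dec. value came from the array that stood apart. Without that array the Dec. mean was -0.35, and without the whole of Dec. pool pair 1 it was -0.26.

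A_05_P375352 was the steadier probe. On the arrays with large fish in Alexa Fluor 647 and Alexa Fluor 555 it read -0.10 and -0.65 in Dec. pool pair 1 and -0.47 and -0.64 in Dec. pool pair 2. The same pairs of arrays read -0.50 and -0.52 in Sept. pool pair 1 and -0.51 and -0.65 in Sept. pool pair 2. It was lower in large fish on all 8 arrays. The Dec. pool pairs averaged -0.38 and -0.56 and the Sept. pool pairs -0.51 and -0.58, so that 7 of the 8 arrays lay in a narrow band and only the array that stood apart came near 0. Without that array the Dec. mean was -0.60. On that array the 2 probes were as far apart as anywhere, A_05_P368497 being at its lowest Dec. value and A_05_P375352 at its value nearest to 0, 1.13 log2 units above.

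**Figure D1:**
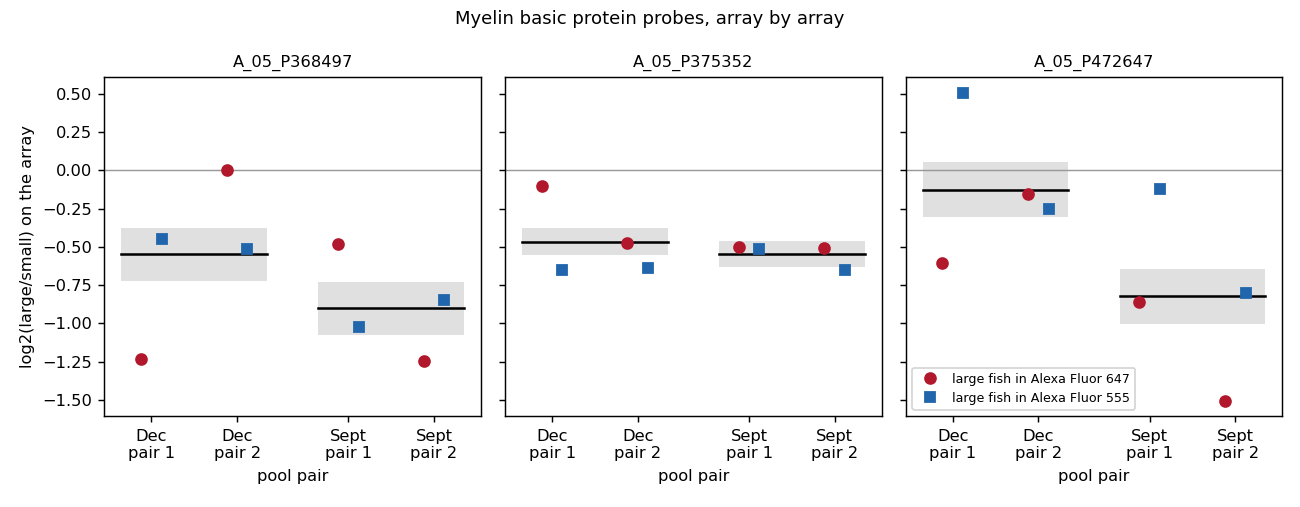
Log2(large/small) of the 3 probes named myelin basic protein on each array (y axis) by pool pair (x axis), with large fish in Alexa Fluor 647 (circles) or 555 (squares); lines are lot means and grey bands ± SE of the limma fit (n = 2 pool pairs per lot). A_05_P375352 is below 0 on all 8 arrays, A_05_P368497 on 7 of 8 and A_05_P472647 on 7 of 8.

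How far the swapped arrays differed can be set against all probes. In Dec. pool pair 1 the 2 arrays differed by 0.79 for A_05_P368497 and by 0.55 for A_05_P375352, where the median probe differed by 0.31. In Dec. pool pair 2 the differences were 0.52 and 0.17, against 0.20 for the median probe. In the Sept. lot A_05_P368497 differed by 0.54 in pool pair 1 and 0.40 in pool pair 2, while A_05_P375352 differed by 0.015 and 0.15, and the median probe by 0.24 and 0.23. A_05_P368497 was thus noisier than the median probe in every pool pair, and A_05_P375352 was quieter in 3 of 4. Over the 4 Sept. arrays the standard deviation of A_05_P375352 was 0.073, and 6.15% of the probes had a smaller one, whereas A_05_P368497 had 0.32. Over all 8 arrays the standard deviations were 0.44 for A_05_P368497 and 0.18 for A_05_P375352, against a median of 0.25 over all probes. The study's methods name a t-statistic, which favours a small spread over the arrays of a lot. A_05_P368497 was nonetheless listed for the Dec. lot, where its standard deviation was 0.51 and 80.1% of the probes had a smaller one. The spreads may still be part of what chose the members, and nothing is read from their place among all probes.

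In the order of all probes the members stood farther out in the Sept. lot, where most probes lay closer to 0. By lot mean A_05_P368497 was the probe of rank 1140 from the lowest among 39770 in the Dec. lot and of rank 23 among 41524 in the Sept. lot. A_05_P375352 had rank 1935 in the Dec. lot and rank 143 in the Sept. lot. A_05_P375352 was lower in large fish on all 4 Dec. arrays, as were 7.56% of all probes, and both members were lower on all 4 Sept. arrays, as were 5.12%. Both were at least 1.2-fold lower by their means in each lot, as were 12.3% of probes in the Dec. lot and 4.08% in the Sept. lot. These values chose the members, and nothing is read from them. Of 38488 probes with a value on every array, 187 (0.486%) were lower in large fish on all 8, and A_05_P375352 was the 15th lowest of these by its mean of -0.51. It was the one probe of the myelin list among them. A_05_P368497 was among the 4.22% of probes that were lower on at least 7 arrays, and its mean over the 8 arrays was -0.72.

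**Figure D2:**
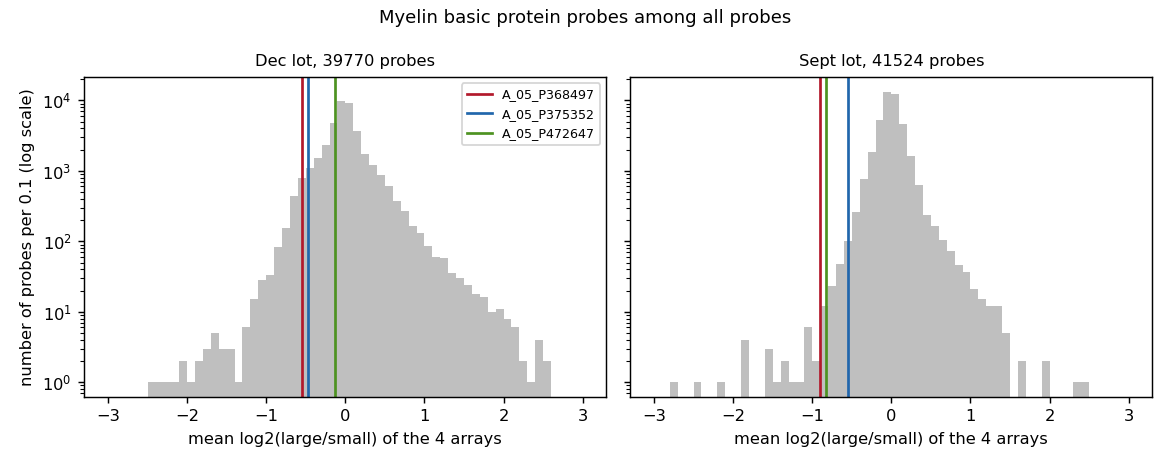
Number of probes (y axis, log scale) by mean log2(large/small) of the 4 arrays of a lot (x axis, bins of 0.1) in the Dec. lot (left, 39770 probes) and the Sept. lot (right, 41524 probes); vertical lines mark the 3 probes named myelin basic protein. The spread of all probes is wider in the Dec. lot, and A_05_P368497 and A_05_P375352 have ranks 1140 and 1935 from the lowest there, against 23 and 143 in the Sept. lot.

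The rule asked for 1 direction in both lots and not for a difference between them. Listing in both lots still favours probes with an effect in each. The Dec. minus Sept. contrast of the members is therefore not free of their choice and leans towards no difference. For A_05_P368497 the Dec. effect minus the Sept. effect was 0.35 ± 0.25 (SE, 95% confidence interval -0.31 to 1.01, adjusted p = 0.723 by limma with Benjamini-Hochberg adjustment). For A_05_P375352 it was 0.08 ± 0.12 (95% confidence interval -0.25 to 0.41, adjusted p = 0.883). Neither probe passed, and the intervals still hold differences of 1.01 and 0.41 log2 units, so the design with 2 pool pairs per lot could not show that the lots were alike. Over all 38488 probes 0 passed an adjusted p of 0.05 in this contrast, and 3483 (9.05%) had an unadjusted p up to 0.05. For A_05_P375352 the sign of the difference was not fixed, being -0.060 without the array that stood apart and -0.011 without Dec. pool pair 1.

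The dye orientation was not itself used to choose the members. The t-statistic named in the study's methods would favour probes whose swapped arrays are alike, however. The dye effects of listed probes are therefore not taken as free of the choice. The dye effect, which is the Alexa Fluor 647 array minus the Alexa Fluor 555 array divided by 2, averaged -0.02 ± 0.13 for A_05_P368497 (SE, 95% confidence interval -0.35 to 0.32, adjusted p = 0.972, limma over 4 pool pairs). For A_05_P375352 it averaged 0.11 ± 0.067 (95% confidence interval -0.06 to 0.28, adjusted p = 0.616), and the arrays with large fish in Alexa Fluor 647 were the higher ones in all 4 pool pairs. No dye effect was called at the adjusted threshold for any of the 38488 probes, while 3625 (9.42%) had an unadjusted p up to 0.05.

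Both members carry 1 gene name, but their readings did not run in parallel. A_05_P368497 minus A_05_P375352 was -0.46 and 0.30 in the Dec. pool pairs and -0.25 and -0.47 in the Sept. pool pairs, with a mean of -0.22 ± 0.36 (SD, n = 4 pool pairs). An exact sign-flip permutation test of that difference gave p = 0.375, two-sided, and 4 pool pairs cannot give a p below 0.125. Across the 8 arrays the 2 probes had a Pearson r of -0.41, a description over arrays of which each pair shares its RNA. That r takes in the array that stood apart, where the probes differed most, by 1.13 log2 units, so its negative sign is not to be relied on. The 2 probes lay within a root mean square difference of 0.55 of each other. The probes were designed from Atlantic salmon transcripts, and which trout transcript each of them binds was not analysed here.

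The third probe named myelin basic protein, A_05_P472647, had been listed by the study for small fish of the Sept. lot and not for the Dec. lot. With large fish in Alexa Fluor 647 and Alexa Fluor 555 it read -0.60 and 0.51 in Dec. pool pair 1 and -0.15 and -0.25 in Dec. pool pair 2. In the Sept. lot it read -0.86 and -0.12 in pool pair 1 and -1.51 and -0.80 in pool pair 2. It was thus below 0 on 3 of 4 Dec. arrays and 4 of 4 Sept. arrays, with lot means of -0.13 ± 0.18 in the Dec. lot and -0.82 ± 0.18 in the Sept. lot (SE, n = 2 pool pairs). Its Dec. minus Sept. difference was 0.70, given with no test, since a probe listed for the Sept. lot alone was chosen for a lower Sept. value. Of the 3 probes it had the largest dye effect, -0.31, which did not pass either (adjusted p = 0.481, limma). It correlated at r = 0.54 with A_05_P368497 and at -0.23 with A_05_P375352 over the 8 arrays.

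The other named myelin proteins had means below 0 in both lots too, but proteolipid protein 1b was close to 0 in the Dec. lot at -0.0087. The list holds 7 probes with the members, all of them picked by the study from these same arrays for the Sept. lot, so their shared direction there is not independent evidence. The members and myelin protein zero had been listed for small fish of the Dec. lot as well, and the other 4 had not, so neither the Dec. values of these 3 nor the order of the lots in the other 4 is independent of the listing. In the Dec. lot the median of the 7 probes was -0.47, 7 of 7 had a mean below 0 and 1 of 7 was below 0 on all 4 arrays. That median, which is the value of the member A_05_P375352, was -0.13 in Dec. pool pair 1 alone, -0.26 in Dec. pool pair 2 alone and -0.25 without the array that stood apart. The 5 probes other than the members had a Dec. median of -0.19, and 0 of 5 were below 0 on all 4 Dec. arrays. Their Sept. median was -0.68, with 4 of 5 below 0 on all 4 Sept. arrays. In the Sept. lot the median was -0.68, 7 of 7 had a mean below 0 and 6 of 7 were below 0 on all 4 arrays. The medians over all probes were -0.01 and -0.0051. Of all probes, 21240 of 39770 had a Dec. mean below 0 and 21573 of 41524 a Sept. mean below 0. Those below 0 on all 4 arrays of the lot were 7.56% in the Dec. lot and 5.12% in the Sept. lot. Of the 5 probes other than the members, 1 was lower in large Dec. fish and 4 were lower in large Sept. fish at the methods' threshold (unadjusted p up to 0.05 and at least 1.2-fold, limma), beside 7.56% and 1.63% of all probes. The 1 Dec. call was myelin protein zero. These calls largely repeat the study's listing of the same arrays, so nothing is read from their share. None of the 5 probes had an adjusted p under 0.05 in either lot, nor did any of all the probes tested, of which 6048 in the Dec. lot and 1488 in the Sept. lot had an unadjusted p up to 0.05 (limma). Without Dec. pool pair 1, which leaves a lone Dec. pool pair that is assumed to vary like those of the Sept. lot, 427 probes passed in the Dec. lot.

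Myelin protein zero, the adhesion protein that holds adjacent turns of the peripheral myelin membrane together, was the lowest of the list in the Dec. lot. In the Dec. lot it read -0.76 and 0.05 in pool pair 1 and -1.06 and -1.05 in pool pair 2, with large fish in Alexa Fluor 647 and then Alexa Fluor 555. In the Sept. lot it read -0.74 and 0.02 in pool pair 1 and -1.48 and -0.52 in pool pair 2. Its means were -0.71 ± 0.24 in the Dec. lot and -0.68 ± 0.24 in the Sept. lot (SE of the limma fit). The study had listed the probe for small fish in both lots, so nothing is read from these means or from its calls at the methods' threshold. Pool pair 2 was the lower one in both lots, and the array nearest to 0 was that with large fish in Alexa Fluor 555 of pool pair 1 each time. Its dye effect of -0.32 had an adjusted p of 0.402 (limma).

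Peripheral myelin protein 22, a small membrane protein of compact Schwann cell myelin, varied most. Its Dec. values were -1.01 and 1.21 in pool pair 1 and -1.31 and -1.25 in pool pair 2, and its Sept. values -0.51 and -1.60 in pool pair 1 and -0.61 and -0.26 in pool pair 2. The means were -0.59 ± 0.37 in the Dec. lot and -0.74 ± 0.37 in the Sept. lot. The proteolipid proteins are the main membrane proteins of central myelin in mammals. The probe named myelin proteolipid protein averaged -0.19 ± 0.11 in the Dec. lot and -0.58 ± 0.11 in the Sept. lot, and proteolipid protein 1b averaged -0.0087 ± 0.082 in the Dec. lot and -0.46 ± 0.080 in the Sept. lot. Their Dec. minus Sept. differences were 0.39 and 0.45. Both had been listed for the Sept. lot alone, so these differences are given with no test.

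**Figure D3:**
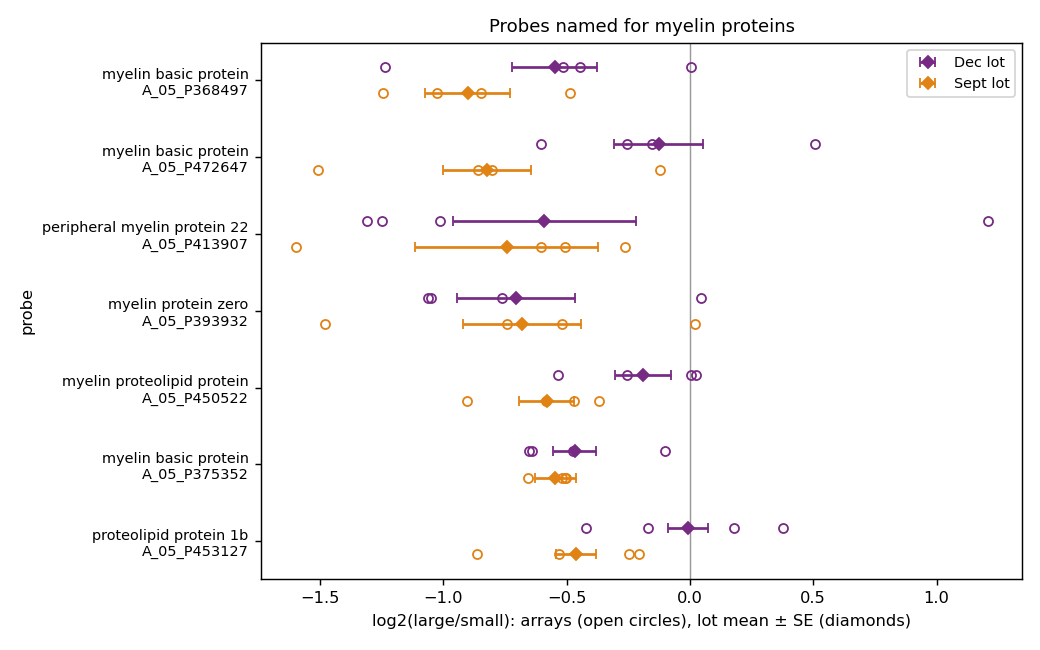
Log2(large/small) (x axis) of the 7 probes named for myelin proteins (rows, ordered by Sept. mean), with the 4 arrays of a lot as open circles and the lot mean ± SE of the limma fit as a diamond, the Dec. lot above the Sept. lot in each row. All 7 means are below 0 in both lots. They lie between -0.71 and -0.0087 in the Dec. lot and between -0.90 and -0.46 in the Sept. lot. Of all probes, 21240 of 39770 Dec. means and 21573 of 41524 Sept. means are below 0.

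Few probes carried a name with a nerve or synapse term. Synaptophysin, a protein of synaptic vesicles, averaged -0.04 ± 0.24 in the Dec. lot and 0.35 ± 0.24 in the Sept. lot. The list of nerve, axon and synapse held 2 further probes, synaptosomal-associated 91kda homolog and synaptotagmin cytoplasmic rna interacting protein. The last is an RNA-binding protein of many cell types that the list took by its name, so it is no marker of nerve. The list's median was -0.04 in the Dec. lot and 0.16 in the Sept. lot. All 3 names came from the study's liver lists. No probe of the 3 was below 0 on all 4 arrays of a lot, beside 7.56% of all probes in the Dec. lot and 5.12% in the Sept. lot. Myelin is rich in cholesterol and long-chain lipids, and the 17 probes of sterol and long-chain fatty acid synthesis, 14 of them named only from liver, had medians of 0.25 in the Dec. lot and -0.02 in the Sept. lot. Of these 17, 2 had a Dec. mean below 0 and 10 a Sept. mean below 0. Of all probes, 21240 of 39770 and 21573 of 41524 had such means. Delta-6 fatty acyl desaturase, which makes polyunsaturated fatty acids, had the largest mean of them over the 8 arrays, 0.81, with 1.41 ± 0.43 in the Dec. lot and 0.21 ± 0.43 in the Sept. lot.

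Marker lists of other cell types, leukocytes aside, had medians away from 0 on these arrays, unevenly between pool pairs. Most names came from the study's lists of differing probes, so these medians and their order between lots partly follow from the listing. All 7 slow muscle, 6 fat cell and 5 skin probes measured in the Dec. lot had been listed for it, and 0 for the Sept. lot. Of the plasma probes, 30 of 36 had been listed for the Sept. lot and 3 of 18 for the Dec. lot. The median of the slow muscle list was -1.62 over 7 probes in the Dec. lot and 0.30 over 8 probes in the Sept. lot. Red blood cell probes had medians of 0.06 and 3.11 in the Dec. pool pairs and 0.64 and 0.74 in the Sept. pool pairs, and plasma proteins of the liver 0.13 and 2.71 in the Dec. pool pairs and 0.68 and 1.02 in the Sept. pool pairs. The lot medians of the skin list were 1.15 in the Dec. lot and 0.68 in the Sept. lot, those of connective tissue 0.81 and 0.21, those of fat cells 1.12 and 0.29, and those of leukocytes 0.04 and 0.03. A_05_P368497 was less low in Dec. pool pair 2, where the blood and plasma lists were highest, and A_05_P375352 was lower there. The part of these lists in the myelin values was not tested.

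**Figure D4:**
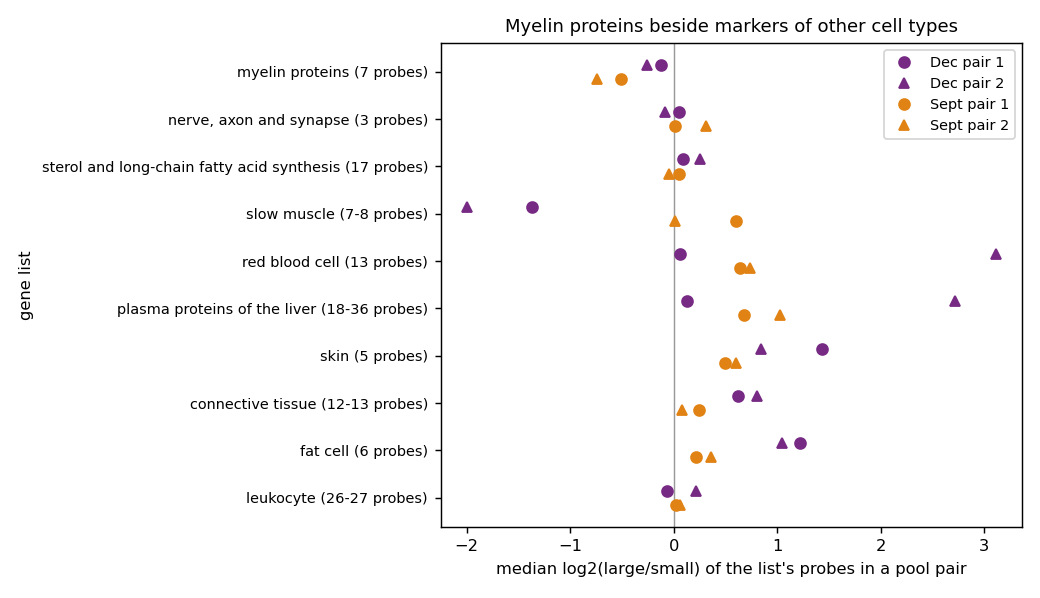
Median log2(large/small) over the probes of each gene list (x axis) in each pool pair (circles pair 1, triangles pair 2), the Dec. lot above the Sept. lot in each row. The myelin list lies between -0.74 and -0.13 in the 4 pool pairs, while the red blood cell list has medians of 0.06 and 3.11 in the Dec. pool pairs.

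The probes most like the members were sought among 1388 named probes with a value on all 8 arrays. By Pearson r the 5 closest to A_05_P368497 were latent-transforming growth factor beta-binding protein 1 precursor (r = 0.948), vasodilator-stimulated phosphoprotein (r = 0.922), NADH dehydrogenase subunit 4l (r = 0.907), NADH dehydrogenase subunit 6 (r = 0.906) and t-complex protein 1 subunit gamma (r = 0.901). Only the last of these, a subunit of a chaperonin that folds cytoskeletal proteins, also lay near it in value, and it was the closest of all probes by root mean square difference, 0.42. The binding protein and the phosphoprotein ran in parallel with it at another height, with means over the 8 arrays of 0.46 and 0.64. By root mean square difference guanidinoacetate n-methyltransferase, an enzyme of creatine synthesis, came next at 0.46, followed by response gene to complement 32 protein at 0.46, sh3 domain-containing protein 19-like at 0.49 and mapk mak mrk overlapping kinase at 0.49.

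For A_05_P375352 the 5 named probes of highest r were a coiled-coil domain-containing protein read by A_05_P327832 (r = 0.926), carnitine o-acetyltransferase (r = 0.858), crystallin J1A (r = 0.849), ubiquitin-conjugating enzyme e2 variant 1 (r = 0.843) and serine threonine-protein phosphatase 6 regulatory ankyrin repeat subunit b (r = 0.838). The 5 closest in value were a zinc finger protein at 0.21, membrane-bound transcription factor site 1 at 0.21, cdp-diacylglycerol--serine o-phosphatidyltransferase-like at 0.24, graves disease carrier at 0.25 and death-associated protein kinase 2 at 0.25. The measures shared 1 of 5 probes for A_05_P368497 and 0 of 5 for A_05_P375352. Among all 38488 probes, 99 had an r of at least 0.9 with A_05_P368497 and 107 with A_05_P375352. How many probes would reach that r by chance over 8 arrays with 4 RNA pairs was not tested. The other member ranked 30913 and 33084 by r. No other myelin probe was among the closest 5 of either member by either measure.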

How the data were processed

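Images were taken by the authors on a GenePix 4200A scanner with GenePix Pro 6.1, where poor spots were excluded manually. In GeneSpring GX 7.3.1 they filtered out low-ratio points and ran lowess, both inside each array and between arrays. The deposited table holds log2 ratios, 1 column per array. Scanner intensities were not used here. The removal and lowess steps set which probes have a value and centre each array near 0, and whether the spread was scaled stays unknown.

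All columns were negated to log2(large/small). Of 43663 rows 60 control features were left out. Swapped arrays were averaged to 1 pool pair, and a mean for each lot was fitted to the 4 pool pairs in limma 3.58.1 (R 4.3.3, lmFit and eBayes), with Benjamini-Hochberg adjustment over all probes with a value on every array compared. The fit was tested on simulated data. p-values measure the spread between pools and arrays, not between single fish. The methods made the same comparisons by size rank in both lots, but the labels do not say which of them a pool pair number stands for. The main fit therefore did not link the lots by number. Names for 1494 probes came from the platform annotation (221 with 1 symbol, 0 with several) and the study's lists. Probes named in the text were the members, all myelin probes, the 5 named probes most like each member by each of 2 measures, and at most 3 examples of other lists, those of largest mean size over the 8 arrays. The members and the 10 gene lists were chosen with earlier results of these data known. Alternatives were array centring and scaling, single dye orientations, turned columns, a left-out array or pool pair, and a replicate block. Others were single arrays with a random pool pair effect, probes on all 8 arrays only, each lot fitted alone, and a t-test on arrays patterned on the methods.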

Additional observations from a re-analysis of the deposited data

Results flagged for a closer look

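In 14 groups of 4 arrays (7 myelin probes in each lot) 2 single arrays lay far from the other 3. Chance flags about 1 in 20 groups of 4 independent values. The arrays here share RNA in pairs and the probes share arrays, so that rate may not hold for them. For A_05_P375352 the lowest Sept. array read -0.65, where the nearest other read -0.52, a gap of 0.90 of the whole range, which was itself narrow. For peripheral myelin protein 22 the highest Dec. array read 1.21, where the nearest other read -1.01, a gap of 0.88 of the range.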

How the results depend on the processing

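Apart from the reading of the columns, all 26 of 26 alternative size effects of the 2 members were below 0. The members were listed for that sign on these same arrays, so nothing is read from the count. With the columns of one dye orientation turned, A_05_P368497 averaged 0.067 in the Dec. lot and -0.036 in the Sept. lot, A_05_P375352 averaged -0.18 in the Dec. lot and -0.041 in the Sept. lot, and the median of the 7 myelin probes was 0.11 in the Dec. lot and -0.036 in the Sept. lot. For A_05_P375352 the Dec. mean was -0.29 on Alexa Fluor 647 arrays alone, -0.65 on Alexa Fluor 555 arrays alone and -0.60 without the Dec. array that stood apart, and the Sept. mean was -0.62 with arrays scaled to 1 spread. Its Dec. minus Sept. difference changed sign on Alexa Fluor 555 arrays alone (-0.061), with turned columns (-0.14), without the array that stood apart (-0.060) and without Dec. replicate 1, the range without 1 pool pair being -0.011 to 0.17. The dye effect of A_05_P368497 was 0.11 without Dec. replicate 1 and 0.05 without Sept. replicate 2, and ran between -0.11 and 0.11 with 1 pool pair left out. The myelin median of the Dec. lot was -0.25 without the array that stood apart. The causes were not tested. Leaving out 1 pool pair gave it a range of -0.26 to -0.13, and that of the Sept. lot a range of -0.74 to -0.51, the end nearer to 0 being that without Sept. replicate 2.

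With the replicate number as a block, Dec. minus Sept. was 0.35 for A_05_P368497 (adjusted p = 0.738, limma) and 0.08 for A_05_P375352 (adjusted p = 0.892, limma). The labels give the lots the same numbers but no shared fish, and the deviations of same-numbered pool pairs correlated at 0.07 over 38488 probes. The block left 0 probes past the adjusted threshold and gave 3579 with an unadjusted p up to 0.05, against 3483 without it. At the methods' threshold 5606 Dec. probes and 1158 Sept. probes passed, against 892 and 369 by the methods' t-test, which counts swapped arrays as replicates and after Benjamini-Hochberg adjustment called 0. Leaving out 1 pool pair of the lot gave 5563 to 7278 Dec. probes and 1183 to 2167 Sept. probes, 2167 being without Sept. replicate 1. The number of arrays limits all values, and signal over background was not analysed here.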
